A study of Homo sapiens with 4 samples.

Results

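The anthrax toxin receptors ANTXR1 and ANTXR2 and 8 collagen and laminin chains of the matrix were compared between FLO-1LM and FLO-1 parental cells. The 10 genes were taken by their Ensembl identifiers from the 63677 genes in the count files, and all 10 were found. They are the receptors ANTXR1 and ANTXR2, the collagen IV chains COL4A1 and COL4A2, the collagen VI chains COL6A1 and COL6A2, and the laminin chains LAMA5, LAMB1, LAMB3 and LAMC1. The set was selected on the rise of ANTXR1 in these same libraries, so the differences of its members between the lines are given as a description. Where a member's place against the cut-off of the fit over all genes is stated, it describes the fit and supports nothing about the members.

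FLO-1, called FLO-1 parental here, is a long-used cell line from a human adenocarcinoma of the esophagus. FLO-1LM is the subline that the study grew from a liver deposit of FLO-1 after repeated passage of liver metastases under the skin of immunodeficient NSG mice, and it is not stated to be a single clone. Both lines were grown in culture, with no treatment named, and RNAseq was run on 2 libraries of each line. No source names separate cultures for these libraries, so their spread may be technical and the p-values measure only that spread. No batch or date is given, and a batch that followed the line cannot be told apart from the line.

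Anthrax toxin receptors are membrane proteins with an extracellular von Willebrand factor A domain, the fold that integrins use to bind collagen. ANTXR1, also known as tumor endothelial marker 8, binds collagens, and ANTXR2, also known as capillary morphogenesis gene 2, binds laminin and collagen IV and clears collagen VI from tissue. Basement membranes are sheets of laminin trimers and a collagen IV network, held together by nidogen and heparan sulfate proteoglycans. Laminins are built from 1 alpha, 1 beta and 1 gamma chain, collagen IV mostly from COL4A1 and COL4A2, and collagen VI from COL6A1, COL6A2 and another, longer chain. Mutation of ANTXR2 causes hyaline fibromatosis syndrome, in which matrix builds up in tissue.

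The libraries held 19060310 to 25920336 counts on genes. Levels are given as CPM, the counts of a gene relative to its library total after TMM scaling, and levels of different genes are compared only as CPM per kb of their MANE Select transcript. Human markers of hepatocytes and stroma were checked because the subline came from a liver deposit. That deposit grew in a mouse, and the reads were mapped to the human genome. Counts of these human genes therefore cannot show whether mouse liver or stromal cells were present. The hepatocyte genes ALB, APOB, TTR and CYP3A4 and the stromal genes DCN, COL3A1, THY1 and FAP had 0 counts in all 4 libraries. The summed level of all 6 hepatocyte markers was 13.4 to 14.8 CPM in FLO-1LM and 16.4 to 18.1 in parental cells, nearly all of it from SERPINA1, the alpha-1 antitrypsin gene, which had 313 to 398 counts. The summed level of all 10 stromal markers was 18.6 to 19.8 CPM in FLO-1LM and 19.2 to 19.8 in parental cells. Most of it came from COL1A1, which had 186 to 284 counts, and ACTA2, which had 119 to 169. The 7 epithelial markers summed to 495 to 511 CPM in FLO-1LM and 866 to 879 in parental cells. Most of this came from KRT8 and KRT18, which were lower in FLO-1LM, as were KRT19, CDH1 and CLDN4. KRT7 was higher, and EPCAM, the epithelial cell adhesion molecule, was nearly absent with 3 to 12 counts. The part of the epithelial difference in the results below was not tested.

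The stretches of DNA in front of the receptors and of the collagen IV pair are shown because they stand before the receptor that was higher in FLO-1LM, its scarcely expressed relative, and a pair of genes that was nearly silent. They were read from GRCh37, the build of the count files, before the start of the MANE Select transcript in the GENCODE annotation of that build, and capitals mark a match on either strand to the GC box (GGGCGG), the CCAAT box, the TATA box (TATAAA) or an E box (CAGGTG). The receptor stretches are the 150 bases before each start, chr2:69240161-69240310 on the forward strand for ANTXR1 and chr4:80994384-80994533 on the reverse strand for ANTXR2. COL4A1 and COL4A2 lie head to head, and their stretch is the whole 126 bases between their MANE Select starts, chr13:110959505-110959630, printed in the direction of COL4A2. Their full annotated gene spans, given below, overlap.
ANTXR1: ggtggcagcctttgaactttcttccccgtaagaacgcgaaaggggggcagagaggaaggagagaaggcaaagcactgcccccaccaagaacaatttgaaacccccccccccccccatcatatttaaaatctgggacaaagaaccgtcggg
ANTXR2: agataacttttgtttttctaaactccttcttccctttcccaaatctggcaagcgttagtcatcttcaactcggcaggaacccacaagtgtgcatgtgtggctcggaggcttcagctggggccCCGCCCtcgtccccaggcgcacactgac
COL4A1 and COL4A2: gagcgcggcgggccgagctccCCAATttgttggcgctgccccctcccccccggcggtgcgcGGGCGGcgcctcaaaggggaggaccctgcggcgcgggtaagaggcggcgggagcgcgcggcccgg

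None of the 4 motifs was found in the ANTXR1 stretch, and 1 GC box was found in that of ANTXR2. The collagen IV stretch held 1 CCAAT box and 1 GC box. Among the 150-base stretches of 18921 genes, 53.7% held a GC box, 26.6% a CCAAT box, 6.56% a TATA box and 9.97% the E box, so a GC box is common in such sequence. In the last 126 bases the shares were 50.9% for the GC box and 24.3% for the CCAAT box.

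Less of the sequence was G and C before the receptors than before the collagen chains. The 150 bases before ANTXR1 were 54.7% G and C and those before ANTXR2 54.0%, below the median of 66% over all genes. COL4A1 and COL4A2 had 78.7% each, COL6A1 80.0% and COL6A2 80.7%, and LAMA5 had the highest share of the 10 at 84.0%. The nearly silent collagen IV pair and the abundant collagen VI pair thus had a similar share of G and C, and 6 of the 10 genes lay above the median share. COL6A1 held 7 GC boxes, 2 of which overlapped, COL6A2 held 3 with 1 TATA box, and LAMA5 held 4. LAMB1 held 2 GC boxes, which overlapped, and LAMB3 held 1, while ANTXR1 and LAMC1 held none of the motifs searched.

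The members spanned the whole range of expression, and the order of their levels per kb was the same in both lines. COL6A2 was the highest at 119 to 139 CPM per kb over the 4 libraries, followed by COL6A1 at 68.8 to 74.3, LAMC1 at 37.9 to 41.1 and LAMA5 at 33.03 to 37.2. ANTXR1 followed at 16.7 to 27.2 CPM per kb, then LAMB1 at 7.98 to 9.14 and LAMB3 at 2.59 to 3.85. ANTXR2 had only 0.124 to 0.221 CPM per kb, and COL4A1 and COL4A2 were lower still and could not be told apart. No other pair of neighbours in this order overlapped over the libraries, although LAMC1 and LAMA5 were separated only narrowly. On the length of all annotated exons instead, LAMB1 and LAMB3 changed places, with 2.63 and 2.71 CPM per kb over the 4 libraries.

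**Figure D1:**
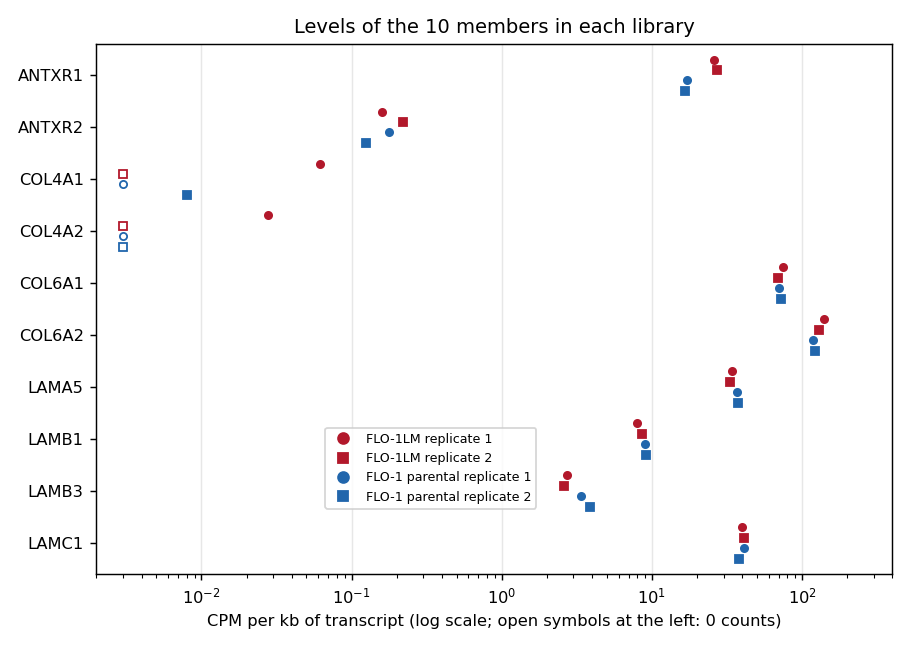
Level of each of the 10 genes in CPM per kb of transcript (log axis), with 1 point per library, circles for replicate 1 and squares for replicate 2, and open symbols for libraries without a count. The collagen VI chains, LAMA5 and LAMC1 lie above 30 CPM per kb in every library, while ANTXR2 lies below 0.3 and the collagen IV chains below 0.1.

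Against 12384 tested genes with a MANE Select transcript, COL6A2 stood above 96.6% in its mean level per kb and COL6A1 above 92.7%. LAMC1 stood above 85.4%, LAMA5 above 83.4% and ANTXR1 above 72.6%. LAMB1 lay near the middle, above 46.8%, and LAMB3 above 25.6%. ANTXR2 stood above only 2.20% of these genes.

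ANTXR1 was the dominant toxin receptor in both lines and was higher in FLO-1LM. The gene (ENSG00000169604) runs along the forward strand of chromosome 2 between 69240308 and 69476459 in GRCh37. It had 152.2 and 159.3 CPM in the FLO-1LM libraries (3391 and 4100 counts) and 100.6 and 98.1 CPM in the parental libraries (2217 and 1880 counts). Both FLO-1LM libraries lay above both parental libraries, with a gap far wider than the spread within a line. The means were 155.7 ± 5.0 CPM in FLO-1LM and 99.3 ± 1.8 in parental cells (SD, n = 2 each). The difference came to 1.57-fold, a log2 fold change of 0.65 with a standard error of 0.078. It stayed between 0.62 and 0.68 in all 11 other ways of fitting the counts, the 4 that left out a library included. In bulk RNA, a change in how many cells express a gene and a change in its RNA per cell cannot be told apart. This is the value that brought the gene into the set, and counts per gene do not separate the full-length receptor from its shorter splice forms.

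ANTXR2 (ENSG00000163297), which spans 80822300 to 81046608 on chromosome 4, reverse strand, was barely expressed. It had 30 and 48 counts in the FLO-1LM libraries and 33 and 20 in the parental libraries, or 1.35 and 1.86 CPM against 1.497 and 1.04. The lines overlapped, and the log2 fold change was 0.34 with a standard error of 0.48. It was 0.54 without FLO-1LM replicate 1, 0.077 without FLO-1LM replicate 2, 0.62 without parental replicate 1 and 0.10 without parental replicate 2. Its exons overlap those of the pseudogene KPNA2P1 on the opposite strand by 69 bases, and KPNA2P1 had 28, 2, 7 and 4 counts in the same order of libraries. Per kb, ANTXR1 exceeded ANTXR2 by 162 and 123 times in FLO-1LM and by 96.6 and 135 times in parental cells, so the ranges of this ratio overlapped between the lines. On the length of all annotated exons the mean ratio was 56.3 in FLO-1LM and 45.7 in parental cells.

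The collagen IV pair was at or near 0 in both lines. COL4A1 (ENSG00000187498, reverse strand, chromosome 13, 110801310 to 110959504) and COL4A2 (ENSG00000134871, forward strand, 110958159 to 111165556) encode the chains of the common collagen IV network. COL4A1 had 9 and 0 counts in FLO-1LM and 0 and 1 in parental cells, and COL4A2 had 4 and 0 against 0 and 0. A library without a count allows a level of up to 0.116 to 0.157 CPM, which is 3 counts, for counting error only. Neither gene passed the filter on low counts, so neither was tested, and no fold is given. The COL4A1 and COL4A2 counts came almost wholly from FLO-1LM replicate 1. The same library held 6 counts of the laminin chain LAMA4 and 3 counts each of the endothelial genes CDH5 and TEK, all of which had 0 in the other libraries. The other endothelial markers did not follow them. VWF had 0 counts in FLO-1LM replicate 1 and 1 to 6 elsewhere, KDR had 0 in every library, and CLDN5 had 584 to 666 in each. In all, 242 genes had at least 3 counts in FLO-1LM replicate 1 and 0 in the others. Such genes numbered 299 for FLO-1LM replicate 2, 359 for parental replicate 1 and 244 for parental replicate 2.

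Of the other collagen IV chains, COL4A4, a chain of the specialised networks of kidney, lung and cochlea, was the only one that passed the filter, with 30 and 22 counts in FLO-1LM and 17 and 19 in parental cells. Its log2 fold change was 0.32 with a standard error of 0.58. COL4A5 had 1 and 12 counts against 8 and 3, COL4A3 3 and 0 against 0 and 4, and COL4A6 had 0 in every library. No chain of collagen IV thus reached the level of a commonly expressed gene in either line.

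Collagen VI, which forms beaded filaments next to basement membranes, presented the opposite picture for 2 of its chains. COL6A1 (ENSG00000142156) and COL6A2 (ENSG00000142173) lie near each other on chromosome 21, forward strand, at 47401684 to 47424964 and 47518026 to 47552762. COL6A1 had 312 and 289 CPM in FLO-1LM and 295 and 305 in parental cells (6955, 7448, 6505 and 5839 counts). The lines overlapped fully, and the log2 fold change was 0.0043 with a standard error of 0.073, of either sign depending on the scaling. COL6A2 had 480 and 444 CPM in FLO-1LM and 410 and 418 in parental cells (10703, 11435, 9027 and 8006 counts). Both FLO-1LM libraries lay above both parental ones, by 1.12-fold or a log2 fold change of 0.16 with a standard error of 0.071, a difference that did not pass the cut-off and came to 0.10 without FLO-1LM replicate 1.

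Within each library, COL6A2 exceeded COL6A1 per kb by 1.88 and 1.87 times in FLO-1LM and by 1.69 and 1.67 times in parental cells. This ratio does not depend on the scaling of the libraries. Its means were 1.88 ± 0.0031 and 1.68 ± 0.014 (SD, n = 2 each), 11.4% higher in FLO-1LM, and the lines did not overlap. The standard error from counting alone reached 0.029 in a single library, more than either SD, so these SDs understate the uncertainty of the ratio. With 2 libraries against 2, an exact two-sided permutation test cannot give a p below 1 in 3, so no test is printed. The third chain, COL6A3, had 0 and 2 counts in FLO-1LM and 5 and 2 in parental cells, and COL6A5 and COL6A6, which can take its place, had 0 to 2 counts. Both lines therefore carried abundant transcripts of 2 chains of collagen VI and nearly none of the longer chain.

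**Figure D2:**
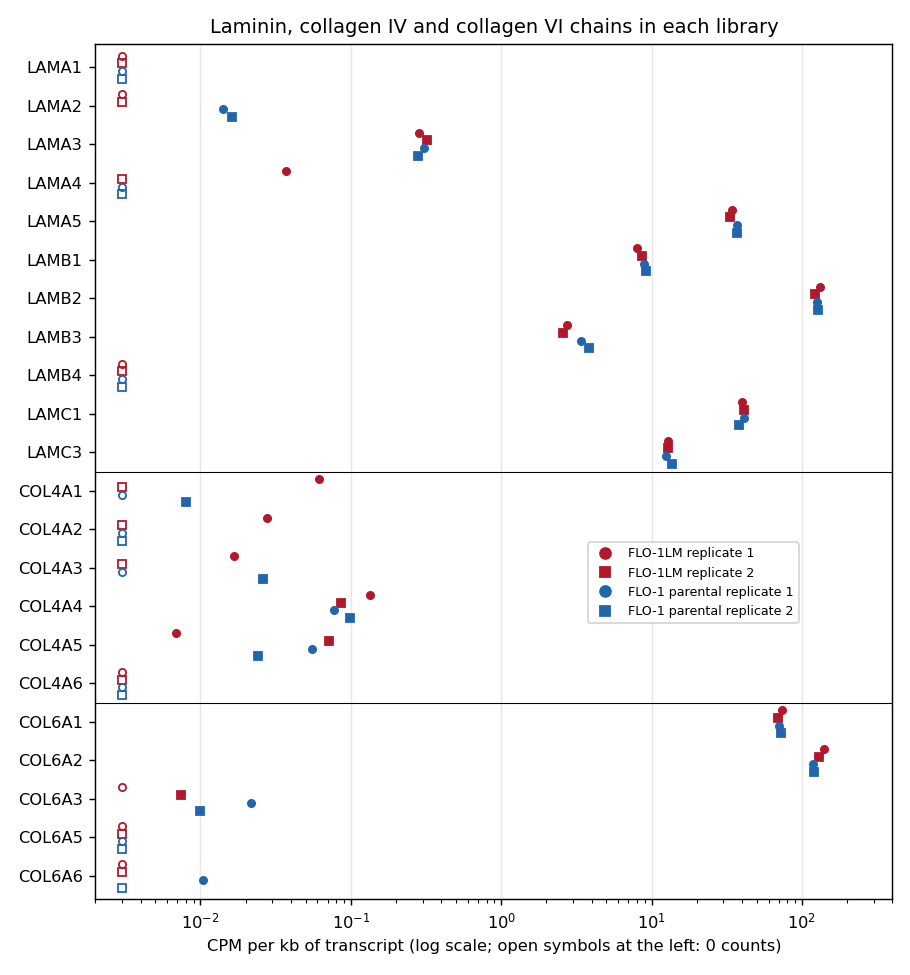
Level of laminin chains (top), collagen IV chain (middle) and collagen VI chain (bottom) in CPM per kb of transcript on a log axis, with 1 point per library and open symbols for libraries without a count. LAMA5, LAMB2 and LAMC1 are the most abundant alpha, beta and gamma chains shown, all collagen IV chains lie below 0.2 CPM per kb, and collagen VI is represented by COL6A1 and COL6A2.

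Among the laminins, the chains LAMA5, LAMB2 and LAMC1, which make up laminin-521, were the most abundant of their classes. LAMA5 (ENSG00000130702), the alpha chain of most adult epithelial basement membranes, spans 60883011 to 60942368 on chromosome 20, reverse strand. It had 390 and 377 CPM in FLO-1LM and 422 and 425 in parental cells (8690, 9716, 9308 and 8148 counts). Both FLO-1LM libraries were lower, with a log2 fold change of -0.14 and a standard error of 0.069, which did not pass the cut-off. Its exons overlap 244 bases of the opposite gene ADRM1, which had 2391 to 2995 counts, and 118 bases of LAMA5-AS1, which had 3 to 8. The strand setting of the counting is not given in the sources used here, so reads of these overlaps cannot be assigned with certainty.

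LAMC1 (ENSG00000135862), the gamma chain shared by most laminins, spans 182992555 to 183114727 on chromosome 1, forward strand. It had 315 and 325 CPM in FLO-1LM and 326 and 301 in parental cells (7028, 8371, 7187 and 5766 counts). The lines overlapped, and the log2 fold change was 0.031 with a standard error of 0.073, turning to -0.025 without parental replicate 2. Per kb, LAMC1 stood to LAMA5 as 1.17 and 1.24 in FLO-1LM and as 1.11 and 1.02 in parental cells, a mean of 1.20 ± 0.054 against 1.07 ± 0.066 (SD, n = 2 each). These ratios did not overlap, but their gap was smaller than the spread within either line.

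LAMB1 (ENSG00000091136), the beta chain of laminin-511, spans 107564244 to 107643658 on chromosome 7, reverse strand. It had 45.1 and 48.7 CPM in FLO-1LM and 50.5 and 51.6 in parental cells (1005, 1254, 1113 and 990 counts). Both FLO-1LM libraries were slightly lower, with a log2 fold change of -0.12 and a standard error of 0.096, which did not pass the cut-off and came to -0.068 without FLO-1LM replicate 1. LAMB1 overlaps 300 exonic bases of the opposite gene DLD, which had 2305 to 3215 counts, more than LAMB1 itself, and 184 bases of the noncoding gene ENSG00000273055, with 0 or 3 counts. LAMB1 was not the main beta chain in either line. LAMB2, the beta chain of laminin-521, had 750 and 698 CPM in FLO-1LM and 718 and 726 in parental cells and exceeded LAMB1 per kb by 16.5 and 14.2 times in FLO-1LM and by 14.1 and 14.0 times in parental cells. The log2 fold change of LAMB2 was 0.0038 with a standard error of 0.068.

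LAMB3 (ENSG00000196878), the beta chain of laminin-332, the anchor of hemidesmosomes, spans 209788215 to 209825770 on chromosome 1, reverse strand. It had 11.0 and 10.4 CPM in FLO-1LM and 13.6 and 15.4 in parental cells (244, 268, 299 and 296 counts). Both FLO-1LM libraries were lower, and the log2 fold change of -0.44 with a standard error of 0.17 was the largest fall among the members, although it did not pass the cut-off. LAMA3, the alpha chain of laminin-332, was scarcer still, with 67 and 88 counts against 72 and 57. LAMB1 exceeded LAMB3 per kb by 2.93 and 3.32 times in FLO-1LM and by 2.64 and 2.38 times in parental cells, without overlap. On the length of all annotated exons the mean ratio was 1.10 in FLO-1LM and 0.883 in parental cells.

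**Figure D3:**
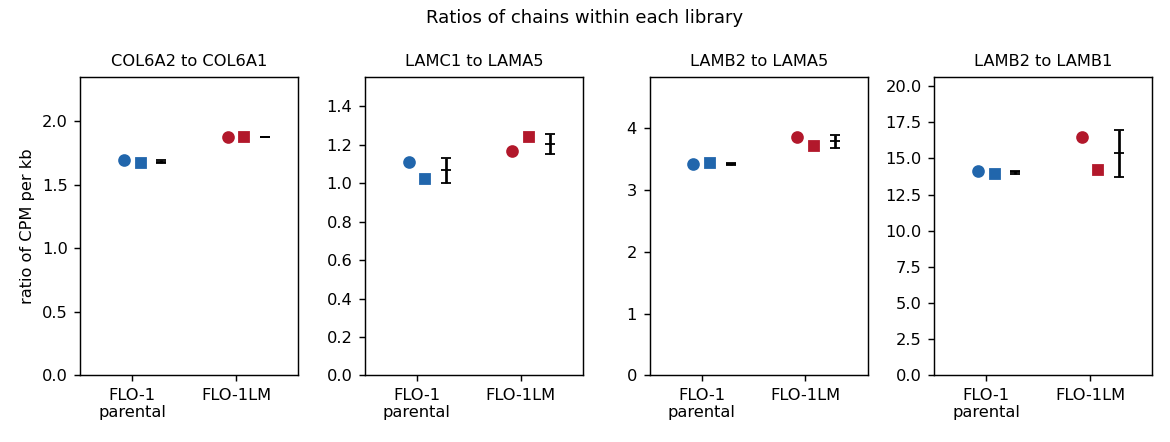
Ratios of the levels per kb of paired chains within each library, with circles for replicate 1, squares for replicate 2, and black bars for each line's mean and SD over 2 libraries; each axis starts at 0. The COL6A2 to COL6A1 ratio is 1.67 to 1.69 in parental cells and 1.87 to 1.88 in FLO-1LM, and LAMB2 exceeds LAMA5 by 3.41 to 3.43 times in parental cells and by 3.71 to 3.86 times in FLO-1LM.

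Across all genes, edgeR's quasi-likelihood test called 2.23% of the 17143 tested at an adjusted p below 0.05, with 0.402% higher and 1.83% lower in FLO-1LM. Of the 8 members tested, ANTXR1 passed as higher and 7 did not pass. The CPM of the lines did not overlap for 20.9% of the tested genes on the higher side and 21.7% on the lower side. Among the members this was so for ANTXR1 and COL6A2, which were higher, and for LAMA5, LAMB1 and LAMB3, which were lower, while ANTXR2, COL6A1 and LAMC1 overlapped. The median log2 fold change was 0.018 over the 8 members tested, 0.0043 over the 7 without ANTXR1, and 0.0016 over all genes tested. The filter left out the collagen IV pair, and nothing is read from these counts, since the members were chosen with this comparison known.

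The wider pathway was read from 8 lists of 124 genes in all, 91 of which were tested. Of these, 1 rose, 2 fell and 88 did not pass, and their median log2 fold change was -0.022. Counts at an unadjusted p below 0.05, given for each list below, stand beside 5.28% of all genes tested on the higher side and 7.08% on the lower side; no list was tested against these shares. The gene that rose was SERPINH1, the collagen-specific chaperone HSP47 of the endoplasmic reticulum. The genes that fell were AGRN, the heparan sulfate proteoglycan agrin, and ITGA3, the alpha 3 integrin that binds laminin-332 and laminin-511.

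**Figure D4:**
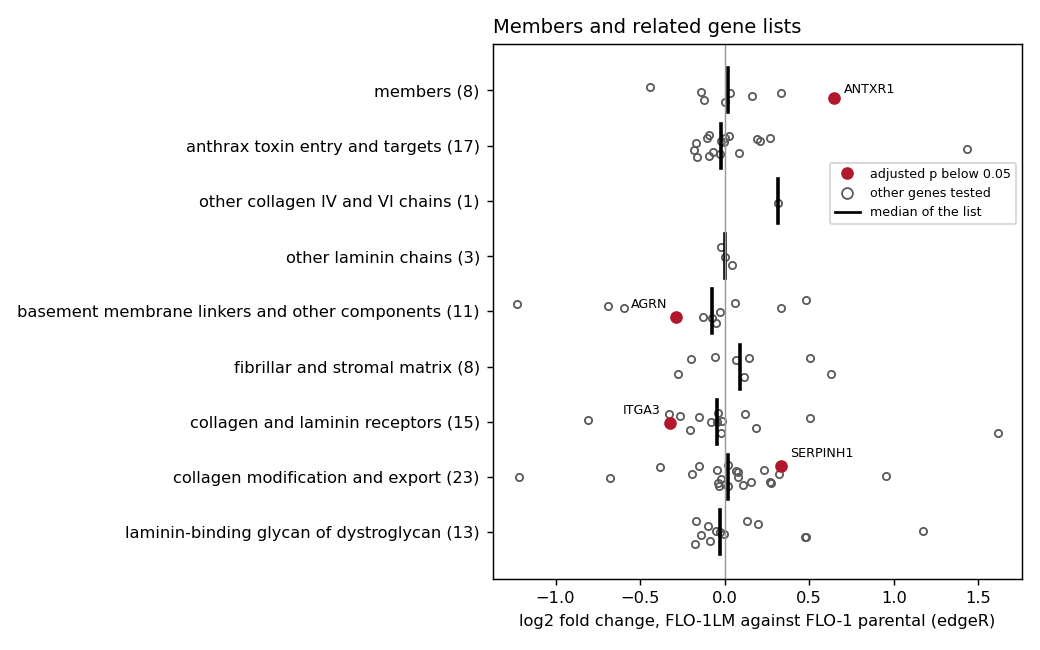
Log2 fold change of FLO-1LM against FLO-1 parental for each tested gene of the members and of 8 related lists, with the number of genes tested in brackets, filled points for genes with an adjusted p below 0.05, and a line at each list's median; the vertical scatter carries no value. Apart from ANTXR1, the called genes are AGRN at -0.29, ITGA3 at -0.32 and SERPINH1 at 0.33, and the list medians lie between -0.074 and 0.32.

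Of the 3 other laminin chains tested, 0 passed the cut-off in edgeR, limma voom or DESeq2, and 0 had an unadjusted p below 0.05 in edgeR. LAMC3, a gamma chain of some specialised basement membranes, had 96.5 and 95.2 CPM in FLO-1LM and 92.8 and 101.9 in parental cells. LAMC1 exceeded it per kb by 3.07 and 3.21 times in FLO-1LM and by 3.30 and 2.78 times in parental cells. LAMA3 had the largest difference of this list, a log2 fold change of 0.043 with a standard error of 0.30. LAMA1 and LAMB4 had 0 counts in all libraries.

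Of the 21 basement membrane linkers and other components, 11 were tested, 0 rose and 1 fell by edgeR's quasi-likelihood test, as by limma voom and DESeq2, and at an unadjusted p below 0.05 the counts in edgeR were also 0 and 1. AGRN, which links laminin to its cell surface receptors, had 809 and 753 CPM in FLO-1LM and 923 and 982 in parental cells. Both FLO-1LM libraries were lower, and the log2 fold change was -0.29 with a standard error of 0.069 (edgeR, adjusted p = 0.0334). The adjusted p was 0.104 without parental replicate 1 and 0.446 without parental replicate 2, the highest of the 11 alternatives, whose lowest was 0.00094. COL18A1, the precursor of endostatin, was also abundant, with 283 and 281 CPM in FLO-1LM and 261 and 281 in parental cells. HSPG2, which encodes perlecan, had 233 and 241 CPM against 245 and 238, while the nidogen NID1 had 0 counts in every library and NID2 had 1 in all. NTN4, a netrin that binds laminin gamma chains, had the largest difference of the list, with 13 and 9 counts in FLO-1LM against 13 and 31, and did not pass.

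All 15 collagen and laminin receptors were tested, and 0 rose and 1 fell by edgeR, limma voom and DESeq2 alike, while 2 were higher and 3 lower at an unadjusted p below 0.05 in edgeR. ITGA3 had 310 and 315 CPM in FLO-1LM and 384 and 397 in parental cells. The lines did not overlap, and the log2 fold change was -0.32 with a standard error of 0.070 (edgeR, adjusted p = 0.0171). The adjusted p was 0.148 without parental replicate 1 and 0.278 without parental replicate 2, the highest of the 11 alternatives, whose lowest was 0.00092. ITGB1, the beta chain that pairs with ITGA3, was among the highest per kb, with 538 and 611 CPM in FLO-1LM and 505 and 507 in parental cells, and a log2 fold change of 0.18 with a standard error of 0.074 (edgeR, adjusted p = 0.293). RPSA, the ribosomal protein once described as a laminin receptor, was as high per kb, but its many processed pseudogenes make its count uncertain. ITGA1, the alpha chain of a collagen receptor, had the largest difference, with 37 and 27 counts in FLO-1LM against 10 and 8, a log2 fold change of 1.62 with a standard error of 0.62 (edgeR, adjusted p = 0.264).

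Collagen modification and export was the largest list, with 23 of 25 genes tested, of which 1 rose and 0 fell by edgeR, and 4 were higher and 1 lower at an unadjusted p below 0.05. Limma voom and DESeq2 each called 2 as higher and 0 as lower, the other one being FKBP10, a prolyl isomerase that works on collagen, named after its values were seen, at a log2 fold change of 0.27 with a standard error of 0.072 (edgeR, adjusted p = 0.0537). SERPINH1 had 100.5 and 106.4 CPM in FLO-1LM and 78.3 and 85.9 in parental cells. Both FLO-1LM libraries were higher, and the log2 fold change was 0.33 with a standard error of 0.084 (edgeR, adjusted p = 0.0435). The adjusted p was 0.0703 on library totals alone, 0.797 without parental replicate 1 and 0.174 without parental replicate 2, within a range of 0.0023 to 0.797 over the 11 alternatives. PPIB, a prolyl isomerase, and P4HB, the beta subunit of prolyl 4-hydroxylase, were the highest per kb, with log2 fold changes of 0.021 and 0.022. MIA2, a cargo factor of endoplasmic reticulum exit sites, had the largest difference, with 12 and 6 counts in FLO-1LM against 22 and 15. The median of the list was 0.022.

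The other 3 lists described here had 0 genes past the cut-off by edgeR, limma voom and DESeq2. All 17 genes of anthrax toxin entry and targets were tested, with a median log2 fold change of -0.024, and 2 were higher and 1 lower at an unadjusted p below 0.05. The most abundant per kb were MAP2K2, a kinase that lethal factor cleaves, at -0.091 with a standard error of 0.086, and the protease CAPN1 at 0.19 with a standard error of 0.077. MAP2K6 had the largest difference but only 14 and 12 counts in FLO-1LM against 1 and 7. With 2.23% of all tested genes called, a list of 17 may hold none, so nothing is read from this count.

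Of the 18 fibrillar and stromal matrix genes, 8 were tested, with a median of 0.092, and 1 was higher and 1 lower at an unadjusted p below 0.05. COL5A1, a fibril-starting collagen, had 42.8 and 46.6 CPM in FLO-1LM and 58.2 and 49.9 in parental cells, with both FLO-1LM libraries lower and a log2 fold change of -0.27 with a standard error of 0.10 (edgeR, adjusted p = 0.244). COL27A1 had 27.8 and 34.2 CPM against 25.7 and 30.6, which overlapped. COL5A3 had the largest difference, a log2 fold change of 0.63 with a standard error of 0.27, and did not pass. COL3A1, the main collagen of loose connective tissue, had 0 counts in every library.

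Dystroglycan binds laminin and agrin through a sugar chain built by a series of enzymes, and all 13 of these enzymes were tested, with 1 higher and 0 lower at an unadjusted p below 0.05. The most abundant per kb were POMGNT1 at -0.087 with a standard error of 0.077 and POMT1 at -0.027 with a standard error of 0.086. The median of the list was -0.027.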

How the data were processed

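Total RNA of FLO-1LM and FLO-1 parental cells was made into directional libraries and sequenced on an Illumina NextSeq instrument. The authors converted and trimmed the reads with bcl2fastq 2.17 and Trimmomatic 0.30, per the submitters' processing notes, and mapped them to GRCh37. The deposited values are raw counts per Ensembl gene, 1 file per library. The counting program, its use of strand and its handling of ambiguous reads are not given in the sources used here. No other normalization had been applied.

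From these counts, 17143 genes passed edgeR's filterByExpr (minimum count 10, minimum total 15). Libraries were scaled by TMM and compared by edgeR 4.0.16 (R 4.3.3) with glmQLFit and glmQLFTest, with Benjamini-Hochberg adjustment and a cut-off of 0.05. Standard errors were taken as the size of the log2 fold change over the root of the F statistic. The study names limma voom, which was run as an alternative (limma 3.58.1), as was DESeq2 1.42.0. Scripts were tested on simulated data. With 2 libraries per line, p-values lean on the spread shared across genes. At 19060310 to 25920336 counts per library, 3 counts are 0.116 to 0.157 CPM, and intervals and floors cover counting error only. Gene positions, exons, strands and MANE Select lengths came from GENCODE v44 mapped to GRCh37. 

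The members and lists were chosen with earlier results of these data known. Named were all members, every list gene past the cut-off, and in each list the 2 highest per kb and, of those tested, the 1 that differed most, together with opposite-strand genes. COL4A3, COL4A5, COL4A6, COL6A3, COL6A5, COL6A6, COL3A1, LAMA1, LAMA4, LAMB4, HSPG2, NID1, NID2, CDH5, TEK and the pairs of chains compared were chosen after their values were seen. So were the other marker genes named above. One endothelial marker had no match in the files, and some genes of the lists are not reported here.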

Additional observations from a re-analysis of the deposited data

How the results depend on the processing

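The number of members past the cut-off was 1, ANTXR1, under all 11 alternatives, which restates the value that the set was selected on. The log2 fold change of COL6A1 turned to -0.027 on library totals alone and to -0.0015 with at least 10 counts in every library, and ran from -0.052 to 0.059 when each library was left out. That of LAMC1 ran from -0.025 to 0.091 when each was left out. ANTXR2, COL6A2, LAMA5, LAMB1 and LAMB3 kept their sign under every alternative and never passed, but their size moved, from 0.077 to 0.62 for ANTXR2, from 0.10 to 0.22 for COL6A2 and from -0.18 to -0.068 for LAMB1. All genes past the cut-off numbered 577 without the low-count filter, against 382, and list genes 5 against 3. With each library left out they numbered 116 to 1052 and 0 to 10, lower without a parental library and higher without a FLO-1LM one; the cause was not tested, though the spread in such a fit rests on the line that keeps both libraries. Without length scaling the COL6A2 to COL6A1 ratio was 1.54 in FLO-1LM and 1.38 in parental cells, and on the length of all annotated exons, an alternative chosen after seeing the data, 1.595 and 1.43. On that length LAMB2 exceeded LAMB1 by 41.9 and 38.3 times, against 15.4 and 14.0. Depth limits ANTXR2, with 20 to 48 counts, and the collagen IV pair. No paired analysis was possible because the labels give no replicate numbers; those used here follow the order of the samples and pair nothing.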
